A study of Mus musculus with 2 samples.

Results

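The transcripts of 10 core pluripotency genes were followed on a pair of one-colour microarrays of mouse embryonic stem cells. The genes were Pou5f1, Sox2, Nanog, Sall4, Utf1, Zscan10, Zfp281, L1td1, Dppa2 and Dppa4, taken by name; no threshold on a measured value decides which genes belong. Every array feature other than a control that carried 1 of these names was taken, which gave 15 of the 56605 probes. There were 5 genes with 1 probe and 5 genes with 2 probes. All 15 probes were well above background on both arrays, so no member was lost to the filter on dim probes, and the 10 genes stood among 21018 genes measured on both arrays.

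Both arrays held total RNA from the embryonic stem cell line 46C, which carries a green fluorescent protein reporter at the Sox1 locus. The cells were kept in serum with leukaemia inhibitory factor on a layer of feeder cells, which was taken away before RNA was collected. The group shCtrl has 1 array and its genotype is given as shCtrl, although its title calls it WT, and the group shLincU has 1 array of cells with a short hairpin against the long noncoding RNA LincU. The title of the series puts LincU among the regulators that hold ERK signalling down and keep stem cells naive, and the arrays address what its loss does to transcripts. With 1 array a group there is no replicate, no test and no p-value, and each difference compares these 2 RNA samples only. No probe could be matched to LincU by name, so the knockdown was not checked and each direction rests on the labels. In bulk RNA, fewer cells of a type and less RNA per cell cannot be told apart.

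Pluripotency is the ability of a cell to give rise to all lineages of the embryo, and in mouse embryonic stem cells it rests on a small circuit of transcription factors. OCT4 (encoded by Pou5f1) and SOX2 bind next to each other on a joined octamer and SOX element, and together with the homeodomain protein NANOG they act on their own genes and on each other's. Around this core stand zinc finger proteins (SALL4, ZSCAN10, ZFP281), the chromatin protein UTF1, the RNA-binding protein L1TD1, and the paired SAP-domain proteins DPPA2 and DPPA4, which prepare the activation of zygotic genes.

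The joined element can be read in the promoter of Nanog, the member whose 2 probes gave different answers. The RefSeq sequence (GRCm38.p6, chr6:122707374-122707467, plus strand) is shown for the 94 bases around it, with the octamer core and the SOX core in capitals.
Nanog promoter: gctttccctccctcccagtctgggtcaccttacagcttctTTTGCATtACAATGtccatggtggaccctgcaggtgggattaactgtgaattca
The capitals lie 75 to 62 bases before the annotated gene start and are the reverse complements of ATGCAAA and CATTGT, which do not overlap. Searched on both strands of 32851 windows from 250 bases before to 50 bases after a gene start, ATGCAAA occurred in 4.63% and CATTGT in 12.6%. The table held 9 windows of 7 member genes. ATGCAAA occurred in windows of Nanog and Sox2, and CATTGT in windows of Nanog and Pou5f1. Both motifs 1 base apart occurred in 2 windows of the whole table (0.00609%), both of them Nanog's. A match describes letters in a window and not a bound site.

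The probes that the readings below turn on are printed in the sense of the transcript, with their mm9 coordinates as the array gives them. They are the probe of Pou5f1, the brighter probe of Nanog, the probe of Sall4 and 1 probe each of Utf1, Zscan10 and Dppa4.
Pou5f1, chr17:35647013-35647072, plus strand: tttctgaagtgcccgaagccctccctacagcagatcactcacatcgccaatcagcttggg
Nanog, chr6:122663514-122663573, plus strand: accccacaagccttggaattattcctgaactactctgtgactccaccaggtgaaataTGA
Sall4, chr2:168578172-168578231, minus strand: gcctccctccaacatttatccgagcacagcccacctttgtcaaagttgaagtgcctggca
Utf1, chr7:147130120-147130179, plus strand: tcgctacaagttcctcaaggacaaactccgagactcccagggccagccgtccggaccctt
Zscan10, chr17:23746601-23746660, plus strand: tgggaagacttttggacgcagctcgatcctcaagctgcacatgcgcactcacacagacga
Dppa4, chr16:48291368-48291427, plus strand: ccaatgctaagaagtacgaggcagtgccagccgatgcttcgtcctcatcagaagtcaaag
The capitals in the Nanog probe mark the stop codon that ends its reading frame. Each probe is 60 bases long, and none of the 15 is among the 300 probes that the array repeats 10 times. Their GC content ran from 35% (Sox2 and L1td1) to 60% (Utf1).

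Levels are given as processed intensity, the scanner software's background-corrected brightness of a spot. The shLincU array was the dimmer of the pair, with a 75th percentile of 420 intensity units against 626 on the shCtrl array. Of the 15 member probes 14 were dimmer in raw intensity on the shLincU array, while the E1A spike-in probes were brighter there by 0.37 on the log2 scale. The reason for this was not tested. Differences were taken after each array was scaled to its own 75th percentile. A difference is always log2, shLincU minus shCtrl, and higher or lower is relative to the bulk of probes on each array. The error after ± is the one the scanner software assigns to the difference; it is mostly a preset multiplicative error of 0.1 on each array and not a spread between replicates. Signals of different probes depend on their sequence and were not ranked against each other.

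Of the 10 genes 8 were higher and 2 lower, and none was far from 0. This count depends on the setting, since 5 were higher and 5 lower with normexp, cyclic loess or centring on the median, and 7 were higher and 3 lower without the Nanog probe that shares a stretch with other genes. The median difference was 0.047 and the mean 0.093, beside a median of 0.020 over all genes. Since that median is above 0, more than 50% of all genes were higher as well. Under most other settings the members' median also lay above that of all genes. It lay below in the rest: the members' median minus that of all genes was -0.082 with normexp, -0.096 with no background filter and -0.00094 in the upper rows. The range ran from -0.17 (Zfp281) to 0.34 (Sall4), with an SD between the 10 genes of 0.16 against 0.40 between all genes. The middle 50% of all genes lay between -0.17 and 0.20, and 7 of the 10 members lay within it. In 7 of the 10 the difference was smaller than its own software error, which ran from 0.14 to 0.20 for these genes. The share of all genes within their own error was not counted. The middle 50% of all genes spans a range of similar size, so this count alone does not set the members apart. None of the 10 was at least 2-fold apart, where 2.67% of all genes were (562 genes, 240 higher and 322 lower). None was at least 1.5-fold apart, beside 9.62% of all genes (2022 genes), although 1 of the 15 probes was. At a smaller size, a log2 difference of at least 0.32, only Sall4 passed, 1 of the 10, beside 27.8% of all genes (5851 genes), and 3 of the 15 probes passed. At none of the 3 sizes did the members' share exceed that of all genes. Apart from the dimmer Nanog probe, the member probes stood at brightness percentiles of 74.7 to 98.9 on the shCtrl array. All genes include dimmer ones, and no set of like brightness was compared. The part of brightness in the members' smaller SD and shares was not tested.

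**Figure D1:**
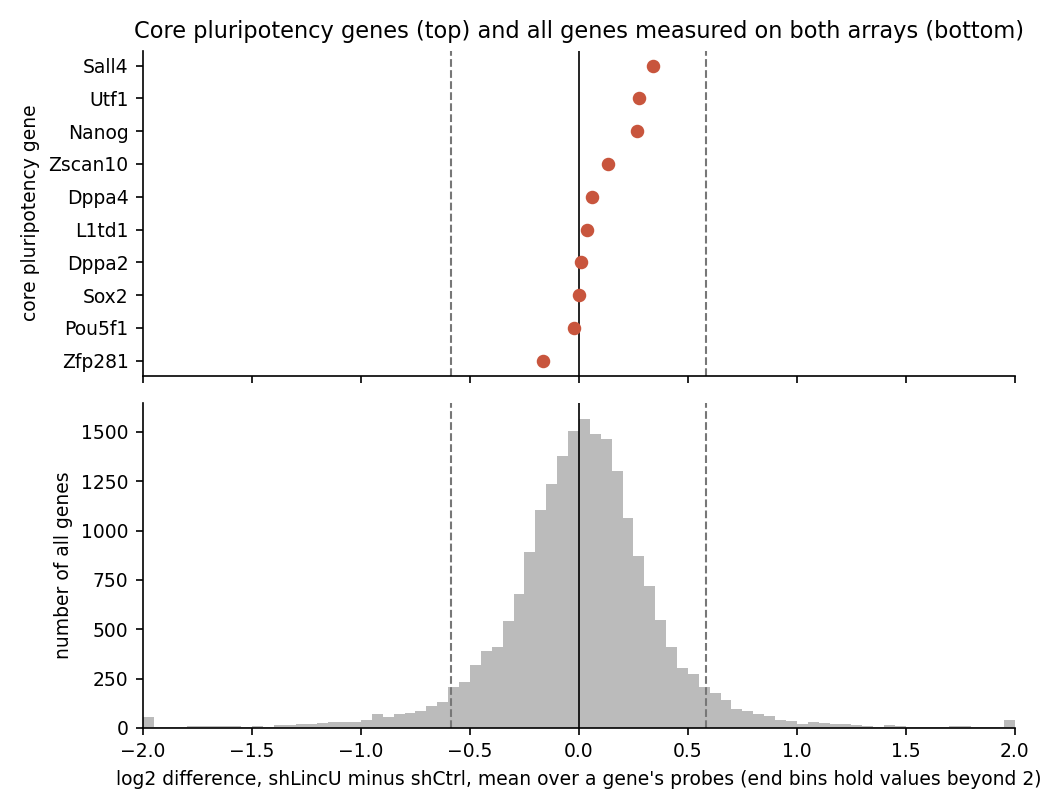
Log2 difference between the shLincU and shCtrl arrays (1 array each) for the 10 core pluripotency genes, 1 point a gene (top), above a histogram of all 21018 genes measured on both arrays (bottom; the end bins hold values beyond 2). Dashed lines mark 1.5-fold in either direction, and all 10 genes lie between them, from -0.17 for Zfp281 to 0.34 for Sall4.

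Pou5f1 encodes OCT4, the POU-domain factor without which pluripotent cells are not kept. Its probe gave 17381 intensity units for shCtrl and 11475 for shLincU, the order in which levels are given from here on, and a difference of -0.024 ± 0.20 after scaling. Only 7.29% of all genes differed by less in either direction. The RefSeq gene table names 7 pseudogenes of Pou5f1, and signal from such copies could not be separated from that of the gene. A probe named for a related sequence, Pou5f1-rs4, gave 2925 and 1957 units and a difference of -0.0056.

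Sox2, an HMG-box factor and OCT4's partner on the joined element, was the member nearest to 0. Its probe maps 57 bases at chr3:34551260-34551316, far into the transcript (from base 2333), and gave 18657 and 12531 units. The difference was 0.00041 ± 0.20. The differences of both DNA-binding partners were thus smaller than their software error.

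Nanog, the homeodomain factor whose level varies between embryonic stem cells in serum, had 2 probes that moved in opposite directions. The brighter probe, printed above with the stop codon, starts at base 1076 of the transcript and gave 3571 and 2001 units, a difference of -0.26 ± 0.20. The dimmer probe starts 162 bases further on, at chr6:122663676-122663735, and gave 62.3 and 72.4 units, a difference of 0.79 ± 0.25. It was the only member probe with a higher raw intensity on the shLincU array. The mean over both probes was 0.27 ± 0.16, a value that neither probe gave. Nanog's direction therefore depends on the probe that is read. For Nanog the RefSeq gene table names 2 pseudogenes, and signal from such copies could not be separated here either.

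The dimmer Nanog probe lies beyond the stop codon and carries a stretch found in many other places. Its bases 6 to 25 occurred in 13 other probes of the array and, searched on both strands, in 40 of the 32851 promoter windows (0.122%). The 30 bases from chr6:122663681-122663710 are shown, with that stretch in capitals.
Nanog, dimmer probe: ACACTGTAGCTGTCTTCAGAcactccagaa
The letters are those of the mouse B2 short interspersed repeat, read on the strand opposite to the repeat's own transcript; this is general knowledge and not an annotation in the files. In all, the probe shared a run of at least 20 bases with probes of 16 other genes, the longest run being 37 bases. Among all probes 5.43% shared such a run with a probe of another gene, and 174 probes (0.307%) did so with at least 10 genes. The other 14 member probes shared none.

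Of the 16 sharing probes 15 carried the run on the opposite strand, and 1, for Zfp872, on the same strand. The Zfp872 probe was not well above background on both arrays. The 15 opposite-strand probes were measured on both arrays, and 14 of them were higher. Their median difference was 0.25, beside 0.020 over all genes, and their range ran from -0.19 (Jmjd4) to 0.33 (Zfp408). Probes with shared letters may share signal, so they are not 15 separate readings. Their shCtrl levels ran from 5.84 to 8.90 on the log2 scale relative to the 75th percentile. The dimmer Nanog probe was at -3.33, so the readings are of very unlike brightness. The sharing probes were picked for their letters after the Nanog values were seen. Whether the shared stretch plays a part in the dimmer probe's difference was not tested.

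The local background around the dimmer Nanog spot was 34 units for shCtrl and 31 for shLincU, and the spot's mean pixel value was 96.8 and 104.6. The lowest signal counted as well above background anywhere on the arrays was 23.8 and 20.7 units. The dimmer probe's difference stayed above 0 under each other background correction and scaling relative to the bulk of genes, from 0.64 with normexp to 0.76 with quantile normalization or in the authors' deposited table. The brighter probe stayed below 0 under the same settings, from -0.38 to -0.25.

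**Figure D2:**
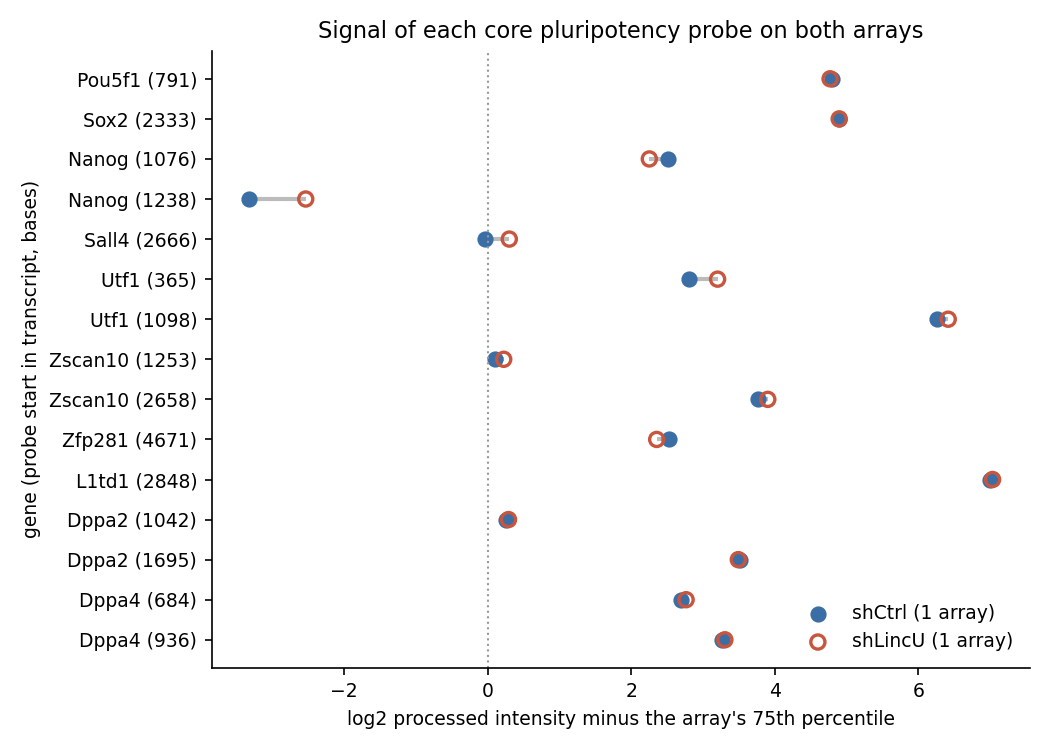
Log2 processed intensity of each of the 15 member probes minus its array's 75th percentile (dotted line at 0), for the shCtrl array (filled circles) and the shLincU array (open circles), with the probe's start in the transcript in brackets. Most pairs of circles overlap, while the pair of the dimmer Nanog probe (1238) lies far below the 75th percentile and is the widest apart, at 0.79.

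Among the zinc finger proteins that work with the core, Sall4 had the largest gene-level difference of the 10. SALL4 is a spalt-family factor that binds with OCT4 and NANOG and acts on Pou5f1. Its probe gave 608 and 517 units, a difference of 0.34 ± 0.20 or 1.27-fold. Of all genes 74.4% differed by less, so this value is not far out in the whole distribution. It rests on 1 probe, near the 75th percentile of signal.

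Utf1, a chromatin-bound protein whose gene is a classical target of OCT4 and SOX2, was higher on both of its probes. The probe at base 365, printed above, gave 4372 and 3870 units and a difference of 0.40 ± 0.20. The brighter probe at base 1098 (chr7:147130950-147131009) gave 48121 and 35923 units and a difference of 0.15 ± 0.20. Both pointed the same way but differed in size, and the mean was 0.28 ± 0.14 or 1.21-fold. Of all genes 65.9% differed by less.

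Zscan10, a SCAN-domain zinc finger factor of embryonic stem cells, gave the closest pair of probes. The probe at base 1253 gave 668 and 490 units, a difference of 0.13. The probe at base 2658 (chr17:23747910-23747969), which the array assigns to another transcript of the gene, gave 8494 and 6285 units, a difference of 0.14. The 2 readings lay within 0.012 of each other, and their mean of 0.13 ± 0.14 was within the software error.

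Zfp281, a zinc finger factor known to restrain Nanog and to act in the passage from naive to primed pluripotency, was the lowest member where Nanog's probes are averaged; the brighter Nanog probe alone was lower. Its probe at base 4671 (chr1:138526365-138526424) gave 3592 and 2149 units, a difference of -0.17 ± 0.20 or 0.891-fold. The value is within its software error, and 45.2% of all genes differed by less.

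L1td1, which encodes an RNA-binding protein derived from the first open reading frame of a LINE-1 element, had 1 probe (chr4:98405084-98405143), which gave 80066 and 55136 units. No spot on either array was saturated. After scaling the difference was 0.036 ± 0.20.

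Dppa2 and Dppa4 lie next to each other on chromosome 16, and their proteins act as a pair. The first Dppa2 probe spans an exon junction at chr16:48317579-48318787 and gave 743 and 513 units, a difference of 0.041. The second (chr16:48319381-48319440) gave 7161 and 4728 units, a difference of -0.024. The gene's mean of 0.0082 ± 0.14 made it the member nearest to 0 after Sox2.

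Dppa4 was slightly higher on both probes, each within its software error. The probe printed above gave 4028 and 2855 units, a difference of 0.078. The other spans an exon junction at chr16:48293216-48293867 and gave 6023 and 4152 units, a difference of 0.038. The mean was 0.058 ± 0.14, so that all 4 probes of this pair of genes were within 0.1 of 0.

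**Figure D3:**
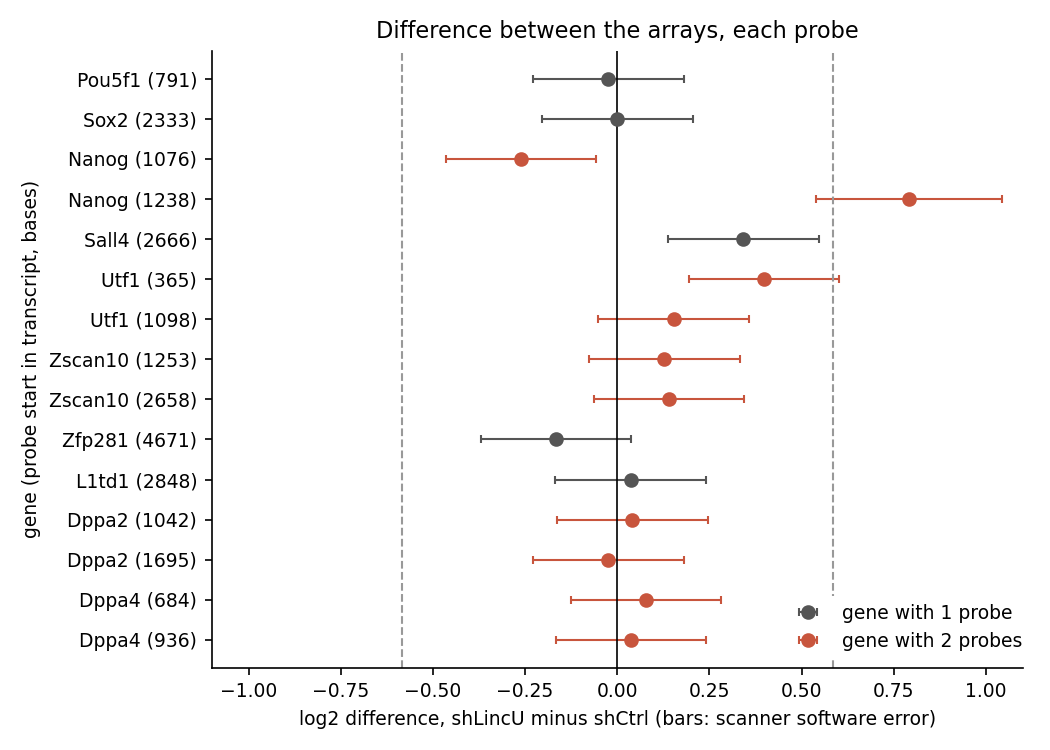
Log2 difference, shLincU minus shCtrl, of each of the 15 member probes with the scanner software's error as bars, in grey for genes with 1 probe and in red for genes with 2 probes. Dashed lines mark 1.5-fold, and the dimmer Nanog probe (1238) at 0.79 is the only probe beyond them, while the brighter Nanog probe (1076) lies at -0.26.

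Across the 15 probes, 11 were higher, 4 were lower and 7 lay within 0.1 of 0. The same shares over all probes were not counted. Over all genes the median was 0.020 and the middle 50% lay between -0.17 and 0.20. The software error of a probe's difference was 0.20 to 0.25, while the error from the pixels within the spots was 0.013 to 0.092. Over 288 repeatedly spotted probes with at least 8 spots on each array, the SD of the difference between spots had a median of 0.040 and a 95th percentile of 0.098. These spot-to-spot values describe hybridisation and scanning of the same labelled RNA and leave out the spread between cultures. The spots around each member probe had median differences from -0.035 to 0.12. Discordant spots were counted within 2 rows and 1 column of each member probe. None of the 15 had 2 or more spots there that differed at least 2-fold in the same direction. Of the member probes 9 lay in the upper and 6 in the lower rows of the slide.

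The 2 probes of a gene could be compared for 5 members and, as background, for 4593 genes with 2 measured probes. Among the latter the median gap between the 2 probes' differences was 0.21. The gap was 0.012 for Zscan10, 0.040 for Dppa4 and 0.065 for Dppa2, and 3.24%, 10.9% and 17.6% of the 2-probe genes had a smaller one. Utf1, at 0.25, stood in the middle, with 54.9% below it. Nanog, at 1.05, stood near the top, with 97.1% below it. A gap of at least 1 occurred in 150 of these genes (3.27%), and 38.4% of them had probes of opposite sign.

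**Figure D4:**
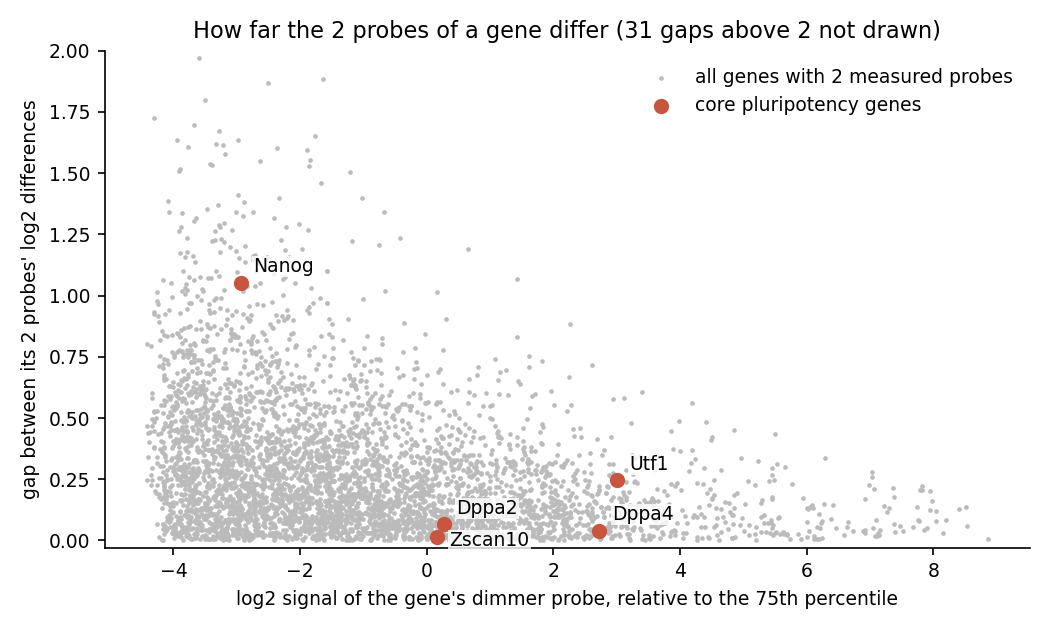
Gap between the log2 differences of a gene's 2 probes against the log2 signal of its dimmer probe relative to the 75th percentile, for all 4593 genes with 2 measured probes (small grey points; 31 gaps above 2 are not drawn) and the 5 members among them (red points). The Nanog point lies at a gap of 1.05 among dim probes, where many genes have wide gaps, and the other 4 members lie at 0.25 or less.

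The members' differences were also read under other ways of processing, without the scaling to spike-in controls that moves all genes together. The ranges below include the value as reported, and several settings, such as the choice among probes or the filter on dim probes, cannot move a gene with 1 probe. Sall4 lay at 0.30 to 0.35, Dppa4 at 0.016 to 0.078, Utf1 at 0.15 to 0.40 and Zscan10 at 0.095 to 0.14. Pou5f1 and Zfp281 lay below 0, at -0.077 to -0.024 and at -0.21 to -0.15. Sox2 (-0.054 to 0.035), L1td1 (-0.070 to 0.036) and Dppa2 (-0.041 to 0.022) changed sign with the setting. Nanog ran from -0.26 to 0.79, its 2 probes being the ends of that range. Scaled to the E1A spike-ins, which moved every gene by -0.94, all 10 were below 0, from -1.11 (Zfp281) to -0.60 (Sall4).

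**Figure D5:**
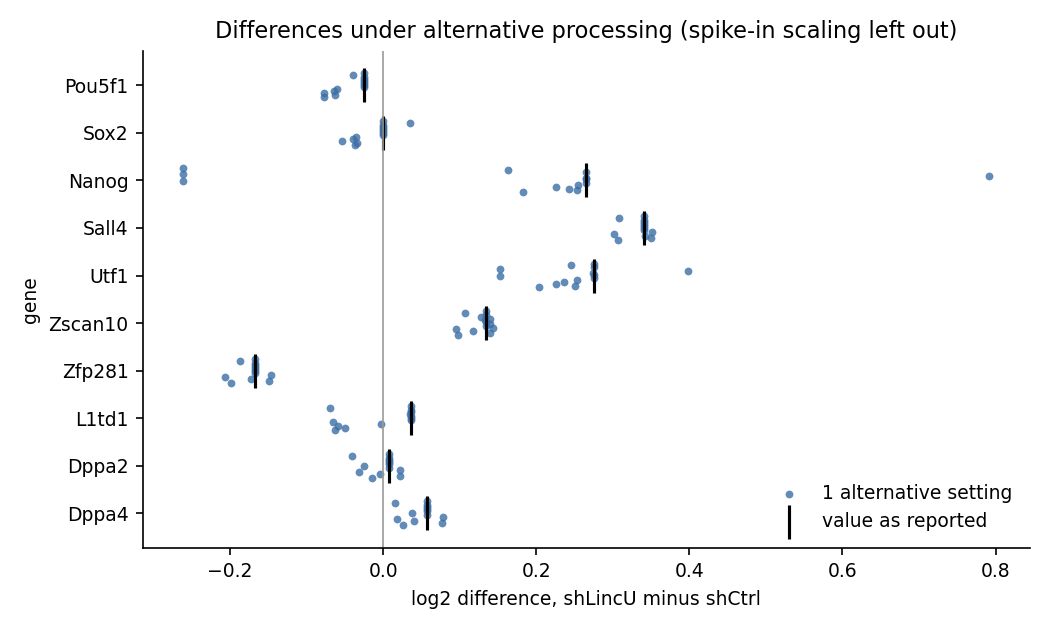
Log2 difference, shLincU minus shCtrl, of each member gene as reported (black line) and under each alternative setting (1 point a setting; scaling to spike-ins is left out). Sox2, L1td1 and Dppa2 fall on both sides of 0, Sall4, Utf1, Zscan10 and Dppa4 stay above it, and Nanog ranges from -0.26 to 0.79.

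The partners and targets of the core factors also lay mostly near 0. In a list of 29 partners and co-regulators, all measured, 19 were higher and 10 lower, the median was 0.066 and none was at least 1.5-fold apart, beside 9.62% of all genes. The widest were Foxd3 at -0.52, a forkhead factor, Mta1 at 0.44, a subunit of the NuRD complex, Tcf7l1 at 0.42, a repressor downstream of WNT, and Nacc1 at 0.36, a NANOG-bound protein. Among 10 direct targets of OCT4 and SOX2, 6 were higher and 4 lower with a median of 0.015, and 1 was at least 1.5-fold apart, a share near the 9.62% of all genes. That 1 was Lefty1 at -0.60, an inhibitor of NODAL, followed by Gdf3 at -0.44, Spp1 at -0.43 and Lin28a at 0.41. The list medians stand beside a median of 0.020 over all genes.

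Genes of the members' own families were mostly near 0 as well. Of 26 relatives 24 were measured, while Pou3f2 and Pou6f1 were not well above background on both arrays. Of the 24, 17 were higher and 7 lower, with a median of 0.094 beside 0.020 over all genes. At least 1.5-fold apart was 1 (9.62% of all genes were), namely Zscan4c at -2.17. Next came Pou2f3 at -0.57, Sox3 at 0.50 and Sox12 at 0.49. Zscan4c is a SCAN-domain zinc finger gene of the 2-cell embryo.

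Most measured zygotic genes known to act under DPPA2 and DPPA4 were lower, while the values of that pair lay near 0. Of 10 such genes 6 were measured on both arrays; Dux, Zscan4d, Tcstv1 and Tdpoz4 were not. Of the 6, 5 were at least 2-fold apart, all lower, beside 2.67% of all genes at that size, and the median was -2.13. Usp17lc was at -2.35, Usp17la at -2.34, Zscan4c at -2.17 and Zscan4f at -2.09. On the shLincU array Usp17lc and Usp17la were dim, with scaled log2 levels of -3.87 and -2.99. The sizes depend on the background correction, since the median of the 6 was -1.39 with normexp. The sixth measured gene, Zfp352, was higher, at 0.31. These genes belong to families of close copies whose probes may share signal, so they are not 5 separate readings. Over the same arrays Dppa2 was at 0.0082 and Dppa4 at 0.058. The arrays do not read protein, and the reason for the lower zygotic genes was not tested.

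Markers of cell types were read as a check of the labelled cells. Summed intensities cover all genes of a list and all their probes, including those below background. The 12 embryonic stem cell markers other than the members were all measured, 6 higher and 6 lower, with a median of 0.0016, none at least 1.5-fold apart, and a summed intensity of 705113 and 512955 units. The RNA thus carried the stem cell markers on both arrays. The widest were Gdf3 and Lin28a, given above, Tfcp2l1 at -0.25 and Klf4 at -0.24. Of 13 markers of fibroblast feeder cells 12 were measured and Lum was below background. Of these 6 were higher and 6 lower. The summed intensity of all 13 was 32537 and 27756 units, but relative to each array's 75th percentile the sum went from 52.0 to 66.1. The median of the 12 was -0.36, and it turned positive in 4 of the other settings (0.032 with normexp, 0.19 to 0.21 in the rest). The list thus has no settled direction. At least 1.5-fold apart were 8 of the 12, of which 6 were lower and 2 higher, beside 9.62% of all genes at that size. The 4 widest were lower, with Dcn at -2.41, Lox at -2.15, S100a4 at -1.88 and Col1a2 at -1.20, while Tagln at 0.88 and Col3a1 at 0.64 were higher. The part of remaining feeder cells in the members' differences was not tested.

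Among markers of lineages that stem cells can enter, those of trophoblast were all higher when a gene's probes were averaged. The others did not share 1 direction. Of the 6 measured primitive endoderm markers of 7 (Pdgfra was below background) 5 were higher and 1 lower, with a median of 0.12. The summed intensity of all 7 was 246 and 198 units. Gata4 was at 0.81 ± 0.25, Foxa2 at 0.53 ± 0.38, Sox7 at -0.18 ± 0.34 and Sox17 at 0.14 ± 0.26. The differences of Sox7 and Sox17 were thus smaller than their software error. All of these named genes were dim, with scaled log2 levels on the shCtrl array from -4.42 (Foxa2) to -3.13 (Sox17). The 6 measured trophoblast markers of 7 (Elf5 was below background) were all higher, with a median of 0.35 beside 0.020 over all genes. Eomes, at 0.24, averaged 2 probes of opposite direction, whose differences lay 2.25 apart. The summed intensity of all 7 was 8122 and 8489 units. Cdx2 was at 1.0, Krt8 at 0.94, Gata3 at 0.46 and Hand1 at 0.25 ± 0.28, the last within its software error. The 6 neuroectoderm markers were 3 higher and 3 lower, with a median of 0.037 and a summed intensity of 7176 and 4676 units. Nes was at 0.22, Zic1 at -0.17 ± 0.28 and Tubb3 at -0.15 ± 0.20, so Zic1 and Tubb3 were within their software error. The part of these cell types in the members' differences was not tested.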

How the data were processed

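Cy3-labelled total RNA of 2 cultures was read on 1 one-colour Agilent array each. The authors' scanner files hold intensity values per spot, made with Agilent Feature Extraction version 10.7.1.1 according to the submitters' processing notes, with background correction and a software error, per the file headers. Flags for bright, saturated or outlying spots are other columns the authors deposited. The authors' deposited table holds log2 values (median 5.65); how they were normalized is not stated in the labels or headers, and the table served as an alternative.

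Control spots and outlier spots (98 for shCtrl, 138 for shLincU) were left out and spots of a probe averaged. Each value is the log2 processed intensity relative to the 75th percentile over the probes of its array. Probes well above background (60.9% for shCtrl, 57.9% for shLincU) on both arrays were averaged per gene. Over the 31898 such probes Pearson's r between arrays was 0.990; probes are not replicates. Sizes counted were 2-fold, 1.5-fold and a log2 difference of 0.32. The number of arrays limits the precision.

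Names came from a RefSeq table of GRCm38.p6 by accession (32994 probes), symbol (10224) or synonym (520); 12867 kept the array's name. Promoters are RefSeq's, with none listed under Sall4, Dppa2 or Dppa4. The members and lists were chosen with earlier results of these data known. Named are all members and, of each of 4 gene lists and 5 marker lists, up to 4 genes with the largest difference, except 1 that is not reported here; other genes were named after their values were seen.

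Alternatives were normexp (offset 50), quantile normalization, cyclic loess, median centring, 8 E1A spike-in probes for scaling, the deposited table, no background filter, the brightest probe or the median over probes, outlier spots kept, upper or lower rows of the slide alone, and spots beside discordant spots left out. The calculation was checked on simulated data. Software was Python 3.11.15 with numpy 2.4.6, pandas 2.3.3 and matplotlib 3.10.9, and R 4.3.3 with limma 3.58.1.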

Additional observations from a re-analysis of the deposited data

How the results depend on the processing

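Of 15 alternatives 2 were added after seeing the data: centring each probe on the spots within 6 rows and 6 columns, and leaving out probes that share 20 bases with a probe of another gene. The members' median and their count at 1.5-fold changed little, with 3 exceptions. Scaled to the E1A spike-ins the members' median was -0.90 and 10 of 10 were at least 1.5-fold apart; that scaling moved every gene by -0.94, left the members' median above that of all genes by 0.027 as reported, and split genes at least 1.5-fold apart into 77 higher and 18440 lower, against 1005 and 1017. In the upper rows alone 1 of 8 members passed, Nanog at 0.79, since only its dimmer probe lies there. At a log2 size of 0.32, 1 member passed. Nanog was at -0.26 with the brightest probe, in the lower rows and without probes that share 20 bases. The members' median minus that of all genes was -0.082 with normexp, -0.096 with no filter and -0.00094 in the upper rows.

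Among all 21018 genes 562 were at least 2-fold apart, against 203 with normexp, 2794 with no background filter, 8237 with E1A scaling and 240 in the upper rows. At 1.5-fold the 2022 genes became 967, 6179, 18517 and 1065. At the log2 size of 0.32 the 5851 became 19277 with no filter, 20281 with E1A scaling, 3488 in the upper and 3778 in the lower rows. These counts are of 36992 genes with no filter, 12807 in the upper and 12761 in the lower rows, so the split by rows lowers them through fewer genes. The feeder markers' median turned to 0.032 with normexp, 0.19 with no filter, 0.21 in the lower rows and 0.19 without spots beside discordant spots; the zygotic genes' was -1.39 with normexp and -1.92 with no filter. The trophoblast markers' median was 0.70 with the brightest probe, 0.59 in the upper rows and 0.70 without spots beside discordant spots, and that of primitive endoderm was 0.53 in the lower rows. The causes of the shifts in list medians were not tested. No paired analysis was possible because there was a single array for either group. The dimmer Nanog probe had the lowest signal over background of the 15.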

Other observations

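Transcripts close to the members in the genome or by name gave further values. Sox2ot, the noncoding transcript that overlaps Sox2, had 3 probes, of which 2 were well above background on both arrays. These gave 418 and 236 units (a difference of -0.25) and 160 and 59.0 units (a difference of -0.87), while Sox2 itself was at 0.00041. Dppa3, an oocyte and germline factor that is also a marker of the naive state, was lower on both of its probes, at -0.25 and -0.16. Dppa5a, an RNA-binding KH-domain protein of stem cells, was at 0.23 on 1 probe. Zfp148, the zinc finger gene most like Zfp281, was at -0.011 and 0.052. Dppa1 was not well above background on either array. These values come from the same 2 arrays and carry no test.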
